A study of Mus musculus with 20 samples.

Results

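The genes described here encode 10 enzymes and cofactors that write, maintain or remove DNA methylation and that demethylate histone H3 at lysine 27 or act beside those demethylases. They were chosen by name: Dnmt1, Dnmt3a, Dnmt3b, Uhrf1, Tet1, Tet2, Tet3, Kdm6a, Kdm6b and Kmt2d. All 10 are among the 46603 gene identifiers in the deposited count files, and all 10 were among the 14661 genes that passed the filter on low counts and were tested. RNA was sequenced from the livers of 2-month-old male mice, with 20 samples in all. Wild-type C57BL/6J mice, bought from a vendor, were compared with EedHepKO mice, which carry Cre driven by the albumin promoter and floxed Eed alleles (loxP sites at exons 3 and 6, per the labels). Eed encodes a core subunit of polycomb repressive complex 2 (PRC2). Each genotype had 5 mice. Lobes removed during partial hepatectomy (PHx) gave the baseline samples, and the lobes left in place gave the samples after PHx, at 30 h in 1 mouse, 40 h in 2 mice and 48 h in 2 mice of each genotype.

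Albumin-driven Cre is used to delete genes in hepatocytes, the cells the labels name as lacking EED, and loss of Eed in other liver cells was not tested. The wild-type mice are not described as carrying Cre or floxed alleles, and they came from another source than the EedHepKO colony, so genotype and origin cannot be told apart. Stage and lobe cannot be told apart either, nor can fewer cells of a type and less RNA per cell in these whole-tissue samples. The p-values measure the spread between these mice.

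DNA methylation of CpG sites in mammals is laid down by the de novo methyltransferases DNMT3A and DNMT3B and copied to the new strand at replication by DNMT1, which UHRF1 recruits to hemimethylated CpG. The TET dioxygenases oxidise methylcytosine and so start its removal. PRC2 places the repressive trimethyl mark on lysine 27 of histone H3. KDM6A (UTX) and KDM6B (JMJD3) take that mark off, and KMT2D is the enhancer methyltransferase of histone H3 lysine 4 whose complex contains KDM6A. In an adult liver few hepatocytes divide, and PHx sends the remaining ones into S phase, when DNMT1 and UHRF1 are needed at the replication fork.

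Between 21634890 and 30461351 reads were assigned to genes per sample. Values below are CPM, the standard read count relative to library size, after TMM scaling, which corrects for differences in library composition. Tests are edgeR's quasi-likelihood tests with p-values adjusted by Benjamini and Hochberg over all 14661 genes. A gene is called where the adjusted p is under 0.05. Eed itself averaged 16.8 ± 1.09 CPM (SD, n = 5) in wild-type and 5.64 ± 1.44 CPM in EedHepKO baseline samples, and 18.4 ± 3.98 against 4.62 ± 1.13 CPM after PHx. Every EedHepKO sample was below every wild-type sample at both stages. The 8 hepatocyte markers were abundant in every group, as the tissue label says, but differed in level. They summed to 124000 to 142000 CPM in wild-type and 76400 to 101000 CPM in EedHepKO baseline samples, and to 70400 to 116000 and 38300 to 93400 CPM after PHx. Markers of other cells also differed between genotypes: the 8 stellate cell markers summed to 146 to 229 CPM in wild-type and 367 to 420 CPM in EedHepKO baseline samples, and the 9 macrophage markers to 166 to 286 and 416 to 545 CPM.

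Few of the 10 genes were called in any comparison. At baseline 1 of 10 was called between genotypes, Dnmt3a, against 16% of all genes tested. After PHx 1 of 10 was called, Tet1, against 24.2% of all genes. Between stages, 2 of 10 were called in wild-type mice, Dnmt1 and Uhrf1, where 20.1% of all genes were, and 2 of 10 in EedHepKO mice, Dnmt1 and Kdm6a, where 29.5% of all genes were. The test of whether the 2 genotypes responded differently called none of the 10, and 0.389% of all genes. The shares called lie at or below those of all genes. In the last test 3 of 10 members had an edgeR unadjusted p under 0.05 (Kdm6a, Uhrf1 and Tet1), where 13.4% of all genes had. Tet1 passed the filter through EedHepKO samples alone, so its p lends no support. DESeq2 also called 0 and gave no adjusted p for Tet1. For the 7 others the difference ran from −0.6 (Tet2) to 0.74 (Dnmt3b), at adjusted p of 0.603 or more. The count over all genes, 24 called higher and 33 lower, depended on single libraries. It rose to 412 and 296 without EedHepKO mouse 10 after PHx, when Kdm6a was also called. Without EedHepKO mouse 8 at baseline it fell to 6 and 26. DESeq2 called 187 and 178.

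Complete separation of the groups of 5 was no more common than among all genes. At baseline 2 of 10 genes (Dnmt3a and Uhrf1) did not overlap between genotypes, against 27.9% of all genes, and after PHx 1 of 10 (Tet1), against 10%. Between stages no member separated in wild-type mice, against 17.8% of all genes, and 1 of 10 (Dnmt1) did in EedHepKO mice, against 13.9%.

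**Figure D1:**
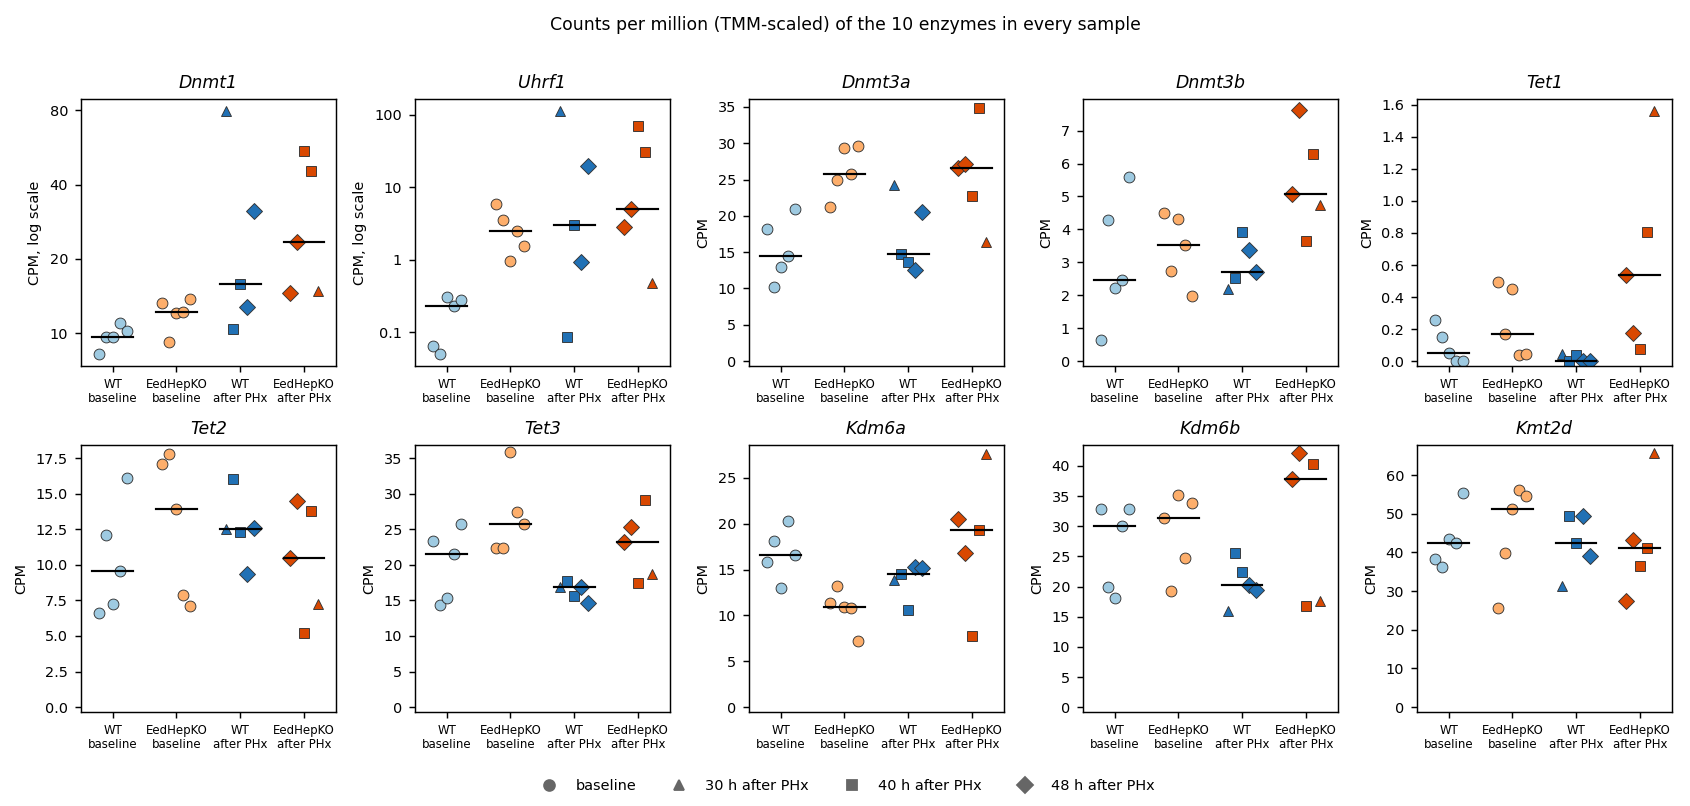
CPM of each gene in all 20 samples, by genotype and stage; the bar is the group median, the symbol gives the hours after PHx, and the Dnmt1 and Uhrf1 axes are logarithmic. Dnmt3a at baseline and Tet1 after PHx separate by genotype, and Dnmt1 and Uhrf1 spread widely after PHx.

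To compare levels between genes, mean CPM was divided by the length of all annotated exons in kb. In wild-type baseline liver Kdm6b was highest at 3.85 ± 1.03 CPM per kb, followed by Kmt2d at 2.17 ± 0.375 and Kdm6a at 2 ± 0.323. Dnmt1 (1.32 ± 0.136), Tet3 (1.2 ± 0.298) and Dnmt3a (0.924 ± 0.257) came next. Tet2 stood at 0.612 ± 0.23 CPM per kb and Dnmt3b at 0.596 ± 0.377. Uhrf1, at 0.0436 ± 0.0283, and Tet1, at 0.00597 ± 0.00724, were near the floor of detection. The neighbours Kmt2d and Kdm6a, Dnmt1 and Tet3, Tet3 and Dnmt3a, and Tet2 and Dnmt3b differed by less than the larger of their SDs. As a share of the summed per-kb level of the 3 methyltransferases, Dnmt1 made up 47.3 ± 6.18% in wild-type and 42.2 ± 3.79% in EedHepKO baseline liver, and 63.8 ± 14% and 57.5 ± 13.9% after PHx. Among the 3 TET genes, Tet3 made up 66.2 ± 8.68% in wild-type baseline liver and Tet1 0.357 ± 0.406%.

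The maintenance pair, Dnmt1 and Uhrf1, held both calls of the wild-type response. Dnmt1 rose after PHx in both genotypes, and Uhrf1 stood at 19.9 CPM or more in the 4 samples with the highest S phase gene levels. Their promoter sequences are shown first because this pair moved together across the samples. RefSeq windows from 250 bases before to 50 bases after each start site (build GRCm38.p6) were available for 9 of the 10 genes, 14 windows in all. Motifs were searched on both strands: an E2F site as TTTCGCGC, TTTGGCGC or TTTCCCGC, the CCAAT box as CCAAT, the cell cycle homology region as TTTGAA, and the core of the NRF1 site as GCGCATGC, whose matches on the 2 strands overlap. Of 32851 windows in the table, 1.84% hold an E2F match, 37.4% CCAAT, 17.9% TTTGAA and 2.71% GCGCATGC. Among the 14 windows of these genes, 1 window of Uhrf1 and 1 of Dnmt1 held an E2F match, and other windows of both genes held none. Both of these windows hold 33 CpG dinucleotides, more than 91.4% of all windows, where the median is 7. Windows of Tet2 (57) and Dnmt3a (46 and 47) held more CpG and no E2F match. The Uhrf1 window with the E2F match also holds 2 CCAAT matches, and that of Dnmt1 3 CCAAT and 2 GCGCATGC matches. Neither holds the start of its gene in GENCODE M21. The windows that do held no E2F match, with 12 CpG for Uhrf1 and 2 for Dnmt1. Printed below are the 250 bases before the Uhrf1 start (chr17:56304063-56304312, plus strand, ahead of an alternative first exon in GENCODE M21) and 30 bases around each of the Dnmt1 matches (chr9:20952824-20952853 and chr9:20952574-20952603, both minus strand, in annotated 5′ exons of Dnmt1), with the E2F match in capitals:
Uhrf1: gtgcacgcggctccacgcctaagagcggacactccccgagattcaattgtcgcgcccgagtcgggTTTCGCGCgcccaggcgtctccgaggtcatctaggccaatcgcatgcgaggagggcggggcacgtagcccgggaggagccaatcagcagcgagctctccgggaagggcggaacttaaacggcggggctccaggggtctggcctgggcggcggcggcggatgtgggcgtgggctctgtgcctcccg
Dnmt1: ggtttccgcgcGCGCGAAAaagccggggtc
Dnmt1: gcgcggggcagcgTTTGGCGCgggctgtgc
A match describes these letters only.

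Dnmt1, the maintenance methyltransferase, lies on chromosome 9 (chr9:20907209-20959888, minus strand, in the GENCODE M21 annotation of mm10). At baseline it measured 8.25 CPM in the wild-type sample that carries no mouse number, 9.69, 9.67, 11 and 10.2 CPM in wild-type mice 2 to 5, and 13.3, 9.25, 12.1, 12.2 and 13.8 CPM in EedHepKO mice 7, 8, 10, 11 and 12. The genotypes overlapped, and the fitted log2 fold change of EedHepKO against wild type was 0.31 (SE 0.46, adjusted p = 0.693). After PHx wild-type mouse 1, killed at 30 h, had 79.5 CPM, mice 2 and 3 at 40 h had 10.4 and 15.9, and mice 4 and 5 at 48 h had 12.8 and 31.2. Among EedHepKO mice, 12 at 30 h had 14.8 CPM, 10 and 11 at 40 h had 54.5 and 45.5, and 7 and 8 at 48 h had 14.5 and 23.4. The highest wild-type value was thus at 30 h and the highest EedHepKO values at 40 h, with 1 or 2 mice at each time. The genotype difference after PHx was 0.03 (95% interval −0.92 to 0.97, adjusted p = 0.972). It was not called in any alternative fit, but it ran from −0.29 to 0.79 as single samples were left out and was 0.97 without the 30 h samples (adjusted p = 0.0586).

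In wild-type mice the Dnmt1 rise after PHx was 1.61 on the log2 scale (SE 0.47, adjusted p = 0.0197), a 3.06-fold increase with a 95% interval from 1.56 to 6.03. It was higher after PHx in 4 of 4 numbered mice, by as little as 0.096 and as much as 1.52 on the log2(CPM + 1) scale. The share of all genes that were higher in 4 of 4 was not counted. The wild-type call rested on the 30 h sample: without it the rise was 0.85 (adjusted p = 0.103). With the mouse as a replicate block it was 0.66 in the 4 numbered pairs (adjusted p = 0.284), and 1.14 with the unnumbered baseline sample taken as mouse 1 (adjusted p = 0.112). In EedHepKO mice the rise was 1.33 (SE 0.46, adjusted p = 0.0364), and every sample after PHx was above every baseline sample. Within mice, 5 of 5 were higher afterwards, where 33.6% of all genes were higher in at least 4. The EedHepKO call was also lost without any 1 of 7 EedHepKO samples (baseline 7, 8, 10, 11 and 12, and PHx 10 and 11), at adjusted p from 0.0584 to 0.0855. Under the replicate block it held in the numbered mice and was lost with the unnumbered sample included (1.14, adjusted p = 0.0825). The 2 responses did not differ detectably (difference −0.28, 95% interval −1.63 to 1.06, adjusted p = 0.895).

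Uhrf1, on chromosome 17 (chr17:56303321-56323486, plus strand), reads hemimethylated CpG and brings DNMT1 to it. No wild-type baseline sample reached the 0.391 CPM that the filter on low counts asks for in 5 samples, which 14 samples of the other groups did. At baseline the 5 wild-type samples held 1, 1, 6, 5 and 6 reads, or 0.065, 0.05, 0.309, 0.229 and 0.275 CPM. The EedHepKO samples 7, 8, 10, 11 and 12 had 5.94, 3.55, 0.965, 2.45 and 1.55 CPM, all above every wild-type sample. The difference was large but imprecise, 3.89 on the log2 scale (SE 1.55, adjusted p = 0.0924), and was not called. It was called by DESeq2 (3.99, adjusted p = 0.0119), with library size alone (4.39, adjusted p = 0.0438) and without the 30 h samples (adjusted p = 0.0306). A fit of the 10 baseline samples also called it, but there Uhrf1 passed the filter through EedHepKO samples alone, so that call lends no support. Beside it, the summed CPM of the 25 S phase genes was 128 to 142 in wild-type and 152 to 245 in EedHepKO baseline samples. Of the 25, 22 had a positive log2 difference and 0 were called. An edgeR unadjusted p under 0.05 was found for 4 of them, against 30.5% of all genes. The 15 mitotic genes summed to 3.71 to 8.45 and 39.8 to 186 CPM, and 3 of 15 were called higher, against 11.1% of all genes. All 15 had a positive log2 difference (median 4.47), and 14 had an edgeR unadjusted p under 0.05. The part of these genes, or of macrophage and stellate RNA, in the Uhrf1 difference was not tested.

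After PHx Uhrf1 ran from 0.0869 to 113 CPM in wild-type and from 0.473 to 68.8 CPM in EedHepKO mice. Wild-type mouse 1 at 30 h had 113 CPM, mice 2 and 3 at 40 h had 0.0869 and 2.97, and mice 4 and 5 at 48 h had 0.921 and 19.9. EedHepKO mouse 12 at 30 h had 0.473 CPM, mice 10 and 11 at 40 h had 68.8 and 30.5, and mice 7 and 8 at 48 h had 2.87 and 4.98. Genotypes and stages therefore overlapped. The wild-type rise was 7.13 on the log2 scale (SE 1.65, adjusted p = 0.00568), and 4.94 without the 30 h sample, where it was still called. With the replicate block in the numbered mice it was 3.71 and not called (adjusted p = 0.117). In EedHepKO mice the change was 2.89 (SE 1.26, adjusted p = 0.088), and 3 of 5 mice were higher after PHx. It was called by DESeq2 (2.91, adjusted p = 0.0495) and without the 30 h samples (3.2, adjusted p = 0.0291). The difference of the responses, −4.24 (95% interval −8.3 to −0.19, adjusted p = 0.349), did not pass. After PHx the genotypes differed by −0.35 (SE 1.17, adjusted p = 0.855), a value that became 2.16 without the 30 h samples (adjusted p = 0.162).

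In the wild-type response 18 of 25 S phase genes and 15 of 15 mitotic genes were called higher, where 11.4% of all genes were. The libraries differed widely: the mitotic sum after PHx was 397, 3.52, 70.6, 3.26 and 1730 CPM in wild-type mice 1 to 5, so that mice 2 and 4 were below every wild-type baseline sample. Among EedHepKO mice 5 of 25 and 0 of 15 were, where 17.4% of all genes were, and no mitotic gene had an edgeR unadjusted p under 0.05. Between stages in wild-type liver, neutrophil markers also rose (5 of 5 tested, with a sum of 0.514 to 0.899 CPM before and 1.48 to 47.6 after, and Ly6g at 0 in all baseline samples). Of the lymphocyte markers 3 of 5 tested fell (6.38 to 9.87 CPM before and 1.1 to 5.78 after), as did 2 of 8 hepatocyte and 2 of 8 sinusoidal endothelial markers. Among macrophage markers 2 of 9 rose and 1 fell, and 1 of 7 cholangiocyte markers rose. The part of these cells in the Dnmt1 and Uhrf1 changes was not tested.

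The same 4 samples ranked highest for Uhrf1, Dnmt1 and the S phase genes. Wild-type mouse 1 at 30 h ranked first for the S phase sum (1800 CPM), Uhrf1 and Dnmt1, and EedHepKO mouse 10 at 40 h (1490 CPM) ranked second for all of them. Wild-type mouse 5 (694 CPM) and EedHepKO mouse 11 (511 CPM) filled ranks 3 and 4 for the 3 measures. Below them the orders differed. EedHepKO mouse 12 at 30 h had an S phase sum of 330 CPM, rank 5 of 20, while its Uhrf1 was rank 14, and EedHepKO mouse 8 at baseline was rank 10 for the S phase sum and rank 19 for Dnmt1. Of the 14660 other genes tested, those most like Uhrf1 over the 20 samples were Fignl1 (Pearson r of log2(CPM + 1) 0.985), Mcm6 (0.977) and Mcm5 (0.974). Those most like Dnmt1 were the replicative helicase subunits Mcm4 (0.963), Mcm2 (0.962) and Mcm3 (0.959). The r of Uhrf1 with Dnmt1 was 0.943. These correlations describe 20 samples that share mice, scaling and 4 groups.

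**Figure D2:**
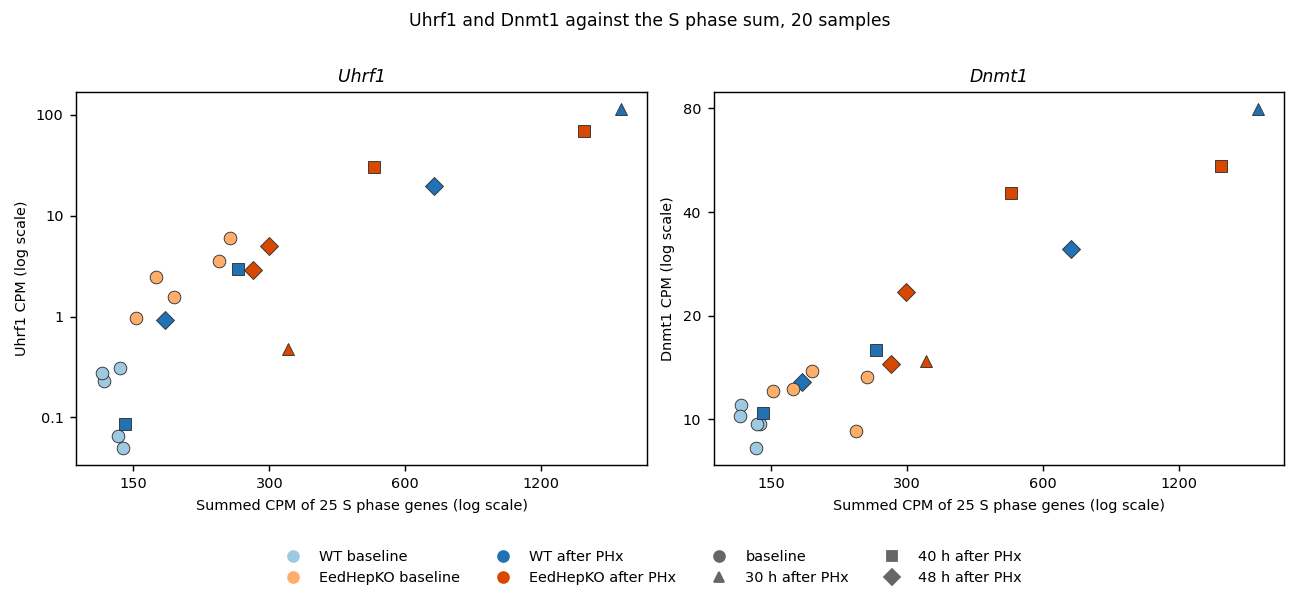
Uhrf1 (left) and Dnmt1 (right) CPM against the summed CPM of 25 S phase genes in the 20 samples, all axes logarithmic; colour gives the group and symbol the hours after PHx. The 4 samples with an S phase sum of 511 CPM or more also hold the 4 highest values of both genes, and the EedHepKO sample at 30 h lies low for Uhrf1.

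Of the de novo methyltransferases, Dnmt3a (chr12:3806007-3914443, plus strand) was higher in EedHepKO than in wild-type liver at baseline. The unnumbered wild-type sample had 18.2 CPM, wild-type mice 2 to 5 had 10.2, 13, 14.5 and 21 CPM, and EedHepKO mice 7, 8, 10, 11 and 12 had 21.2, 25, 29.4, 25.7 and 29.6 CPM. The groups did not overlap, although the highest wild-type and the lowest EedHepKO sample nearly touched. The fold was 1.7 (95% interval 1.22 to 2.38), or 0.77 on the log2 scale (SE 0.23, adjusted p = 0.0278). The call was lost without wild-type baseline sample 2, 3 or 4 or EedHepKO baseline sample 10 or 12, with a log2 value from 0.65 to 0.75 and adjusted p from 0.0604 to 0.0785. An antisense gene, Dnmt3aos, overlaps Dnmt3a, and reads of the pair cannot be told apart where counting ignored strand, which the sources used here do not give. In EedHepKO baseline liver 4 of 8 stellate and 3 of 9 macrophage markers were also called higher, and 2 of 8 hepatocyte markers lower, with the sums given above. Of the sinusoidal endothelial markers 1 of 8 was called higher, and of the lymphocyte and neutrophil markers 1 of 5 tested in each list. Of the cholangiocyte markers 1 of 7 was called higher, and their sums overlapped (34 to 79.1 against 74.5 to 385 CPM). Of these markers the neutrophil gene Ly6g was at 0 in both baseline groups and no other was, and their part in the Dnmt3a result was not tested.

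After PHx Dnmt3a measured 24.2, 14.7, 13.7, 12.5 and 20.6 CPM in wild-type mice 1 to 5 and 26.6, 27.1, 22.8, 34.9 and 16.4 CPM in EedHepKO mice 7, 8, 10, 11 and 12. The groups overlapped through wild-type mouse 1 and EedHepKO mouse 12, the 30 h samples. The difference was 0.58 (SE 0.23, adjusted p = 0.0727), and 0.85 without the 30 h samples (adjusted p = 0.0107). Dnmt3a did not change between stages in a detectable way, with a log2 difference of 0.16 (95% interval −0.32 to 0.64) in wild-type and −0.03 (−0.51 to 0.44) in EedHepKO mice. Genes most like it were Nck2 (r = 0.86), Nrxn2 (0.842) and Rarg (0.839).

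Dnmt3b (chr2:153649450-153687730, plus strand), the second de novo enzyme, ran from 0.65 to 5.59 CPM in wild-type and 1.97 to 4.51 CPM in EedHepKO baseline liver. After PHx it ran from 2.18 to 3.92 and from 3.66 to 7.62 CPM. The genotypes overlapped only between the highest wild-type and the lowest EedHepKO sample after PHx, and the log2 difference of 0.9 (SE 0.39, adjusted p = 0.105) was not called. It stayed uncalled in 27 of 29 alternative fits. It was called with 1 sample left out (adjusted p = 0.0444) and in another fit (adjusted p = 0.0327). At baseline the log2 difference was 0.16 (adjusted p = 0.822). Between stages it was −0.06 in wild-type (adjusted p = 0.942) and 0.68 in EedHepKO mice (adjusted p = 0.192). Zfp37 was the gene most like Dnmt3b (r = 0.772), followed by Ncoa5 (0.759) and Strada (0.745).

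The TET genes held the largest called genotype difference among the 10 genes, in the least abundant of them. Tet1, on chromosome 10 (chr10:62804570-62908996, minus strand), was read 1, 0, 1, 0 and 0 times in wild-type mice 1 to 5 after PHx. In EedHepKO mice 7, 8, 10, 11 and 12 it was read 18, 8, 2, 29 and 33 times, or 0.539, 0.176, 0.0762, 0.806 and 1.56 CPM. Every EedHepKO sample was above every wild-type one, with 2 pooled reads against 90. After scaling the ratio of the pooled counts was 35.9, with a 95% counting interval from 9.66 to 301 that covers counting error only. The fitted log2 fold change was 4.94 (SE 1.13, adjusted p = 0.00343). Tet1 entered the test only through EedHepKO samples: 5 samples reached the 0.391 CPM of the filter, 2 EedHepKO at baseline and 3 after PHx, and no wild-type sample did. A gene kept in this way had to be higher in EedHepKO liver, so the call lends no support to the direction. Tet1 was not tested under a stricter CPM filter or in the fit of the 10 samples after PHx, where its counts fell below the filter.

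At baseline Tet1 was read 4, 3, 1, 0 and 0 times in wild-type and 15, 4, 13, 1 and 1 times in EedHepKO mice, and the genotypes overlapped. The ratio of pooled counts, 8 against 34, was 3.26 (counting interval 1.48 to 8.16), and the fitted difference of 1.47 (SE 0.98, adjusted p = 0.327) was not called. The stage differences, −2.15 in wild-type (adjusted p = 0.255) and 1.32 in EedHepKO mice (adjusted p = 0.233), and the difference of the 2 responses, 3.47 (SE 1.55, adjusted p = 0.34), were not called either. Genes most like Tet1 were Plag1 (r = 0.873), Fam110b (0.823) and Jarid2 (0.82), the last a PRC2 accessory subunit. After PHx 5 of 7 cholangiocyte markers were called higher in EedHepKO liver (sums of 35.1 to 256 against 138 to 815 CPM), as were 3 of 8 stellate markers (133 to 234 against 281 to 463 CPM), and 1 of 8 hepatocyte markers was called lower. Of the macrophage markers 1 of 9 and of the sinusoidal endothelial markers 1 of 8 were called higher. None of them was at 0 in a group, and their part in the Tet1 result was not tested.

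Tet3 (chr6:83362373-83459084, minus strand), the most abundant TET gene here, ran from 14.4 to 25.7 CPM in wild-type and 22.4 to 35.8 CPM in EedHepKO baseline liver. After PHx it ran from 14.6 to 17.7 and from 17.4 to 29.1 CPM. The 2 groups after PHx touched through wild-type mouse 2 and EedHepKO mouse 10 alone. Neither difference was called, at 0.41 (SE 0.19, adjusted p = 0.144) at baseline and 0.48 (SE 0.19, adjusted p = 0.0727) after PHx. The baseline difference passed with upper-quartile scaling (0.56, adjusted p = 0.0457), and the one after PHx passed in DESeq2 (0.49, adjusted p = 0.0467) and without EedHepKO mouse 10 (0.56, adjusted p = 0.0301). Between stages Tet3 differed by −0.3 in wild-type (95% interval −0.69 to 0.1) and −0.23 in EedHepKO mice (−0.63 to 0.16).

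Tet2 (chr3:133463679-133545139, minus strand), which an antisense gene (Gm42567) overlaps, was called in no comparison. It ran from 6.63 to 16.1 CPM in wild-type and 7.09 to 17.8 CPM in EedHepKO baseline liver, and from 9.32 to 16 and 5.22 to 14.5 CPM after PHx. Its genotype differences were 0.3 (95% interval −0.36 to 0.97) at baseline and −0.29 (−0.95 to 0.37) after PHx. Its stage differences were 0.28 (−0.38 to 0.95) in wild-type and −0.31 (−0.98 to 0.35) in EedHepKO mice. Tet3 was most like Pbx2 (r = 0.813), Ccn1 (0.809) and Cxxc5 (0.807), and Tet2 like Clk1 (0.735).

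Among the H3K27 demethylases, Kdm6a rose after PHx in EedHepKO mice, while its wild-type change and the difference of the responses were not called. Kdm6a (UTX) is X-linked (chrX:18162575-18279936, plus strand). At baseline it measured 15.8 CPM in the unnumbered wild-type sample, 18.1, 13, 20.3 and 16.6 CPM in wild-type mice 2 to 5 and 11.4, 13.2, 10.9, 10.8 and 7.18 CPM in EedHepKO mice 7, 8, 10, 11 and 12. The groups overlapped through wild-type mouse 3 and EedHepKO mouse 8, and the difference of −0.64 (SE 0.25, adjusted p = 0.0802) was not called. It was called without EedHepKO PHx sample 10 (−0.64, adjusted p = 0.0197) and in the fit of the 10 baseline samples (−0.61, adjusted p = 0.0119), while with library size alone it was −0.16 (adjusted p = 0.683). After PHx Kdm6a measured 13.9, 14.5, 10.6, 15.3 and 15.2 CPM in wild-type mice 1 to 5 and 20.5, 16.8, 7.81, 19.3 and 27.6 CPM in EedHepKO mice 7, 8, 10, 11 and 12. EedHepKO mouse 10 had the lowest value of the 10, and the 4 other EedHepKO mice were above every wild-type mouse. The genotype difference after PHx was 0.41 (SE 0.24, adjusted p = 0.238), and 0.6 without mouse 10 (adjusted p = 0.022).

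Within mice, Kdm6a was lower after PHx in 4 of 4 numbered wild-type mice, as were 21.6% of all genes, and higher in 4 of 5 EedHepKO mice, where 33.6% of all genes were higher in at least 4. The EedHepKO rise was 0.78 on the log2 scale (SE 0.25, adjusted p = 0.0237), a 1.72-fold increase (95% interval 1.2 to 2.45). With the replicate block it was 0.69 (adjusted p = 0.101) in the numbered mice and 0.7 (adjusted p = 0.0819) in all 10, and was not called. It was also not called without EedHepKO mouse 12 after PHx (0.59, adjusted p = 0.0733), without its baseline sample (0.66, adjusted p = 0.0661), without both 30 h samples (0.59, adjusted p = 0.0804), or in the fit of the 10 EedHepKO samples (0.81, adjusted p = 0.0842). In wild-type mice the change was −0.27 (SE 0.25, adjusted p = 0.47). The difference of the responses was 1.05 (SE 0.35), with an edgeR unadjusted p of 0.00665 and an adjusted p of 0.192, and without EedHepKO mouse 10 after PHx it was 1.24 and called (adjusted p = 0.0162). Kdm6a was most like Larp4 (r = 0.896), Sp3 (0.888) and the H3K36 methyltransferase Setd2 (0.888). Between stages in EedHepKO liver, 4 of 7 cholangiocyte markers rose (sums of 74.5 to 385 CPM before and 138 to 815 after). Of the macrophage markers 4 of 9 fell and 1 rose (416 to 545 and 80.5 to 377 CPM), and 4 of 5 tested lymphocyte markers fell (7.75 to 26.3 and 3.47 to 8.72 CPM). Among stellate markers 3 of 8 fell and 1 rose, among sinusoidal endothelial markers 2 of 8 fell and 1 rose, 1 of 8 hepatocyte markers fell, and 1 of 5 neutrophil markers rose. Their part in the Kdm6a change was not tested.

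**Figure D3:**
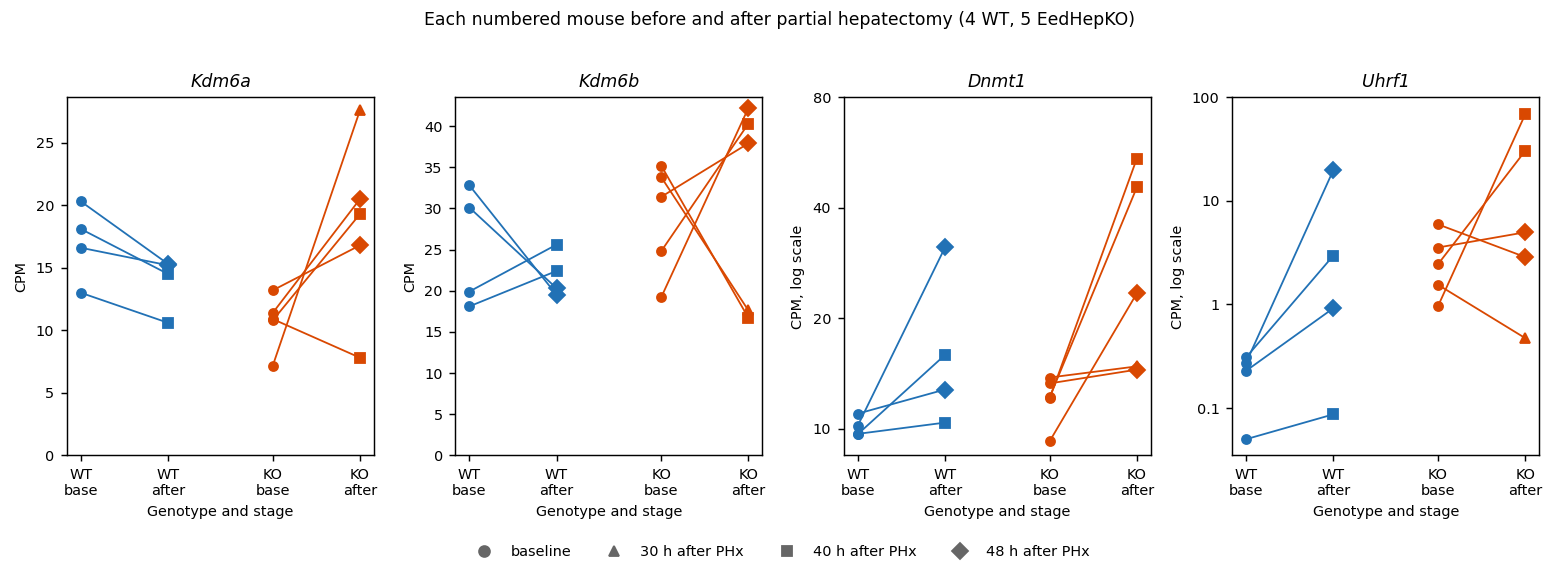
CPM of Kdm6a, Kdm6b, Dnmt1 and Uhrf1 in each numbered mouse, with a line from the baseline sample to the sample after PHx (4 wild-type mice in blue, 5 EedHepKO mice in orange); the symbol gives the hours after PHx, and the Dnmt1 and Uhrf1 axes are logarithmic. Kdm6a lines fall in all 4 wild-type mice and rise in 4 of 5 EedHepKO mice, and Dnmt1 lines rise in all 9.

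Kdm6b (JMJD3, chr11:69398508-69413675, minus strand) was called in no comparison. It ran from 18.1 to 32.8 CPM in wild-type and 19.2 to 35.2 CPM in EedHepKO baseline liver. After PHx wild-type mice held 16 to 25.6 CPM, while EedHepKO mice 7, 8 and 11 had 37.9, 42.2 and 40.3 and mice 10 and 12 had 16.7 and 17.6 CPM. EedHepKO mice 7, 8 and 11 thus lay above the wild-type range and mice 10 and 12 inside it, and the difference was 0.58 (SE 0.27, adjusted p = 0.124). It was called without mouse 10 (0.73, adjusted p = 0.0319) and without mouse 12 (0.72, adjusted p = 0.0485). At baseline the genotypes differed by 0.11 (adjusted p = 0.819), and the stages by −0.37 in wild-type (adjusted p = 0.359) and 0.1 in EedHepKO mice (adjusted p = 0.797). The antisense gene Kdm6bos overlaps Kdm6b. The genes most like Kdm6b were Vps72 (r = 0.846), Plekhm1 (0.836) and the PRC1 chromobox gene Cbx7 (0.799).

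Kmt2d (MLL4, chr15:98831669-98871204, minus strand) had group means from 42.2 to 45.5 CPM. Single samples ran from 25.5 CPM in EedHepKO mouse 7 at baseline to 65.8 CPM in EedHepKO mouse 12 at 30 h. The genotype differences were 0.07 (95% interval −0.4 to 0.55) at baseline and 0.02 (−0.46 to 0.5) after PHx. The stage differences were −0.03 (−0.51 to 0.44) in wild-type and −0.09 (−0.56 to 0.39) in EedHepKO mice. Kmt2d was most like Dync1h1 (r = 0.749), Pkd1 (0.67) and Pttg1ip (0.658).

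**Figure D4:**
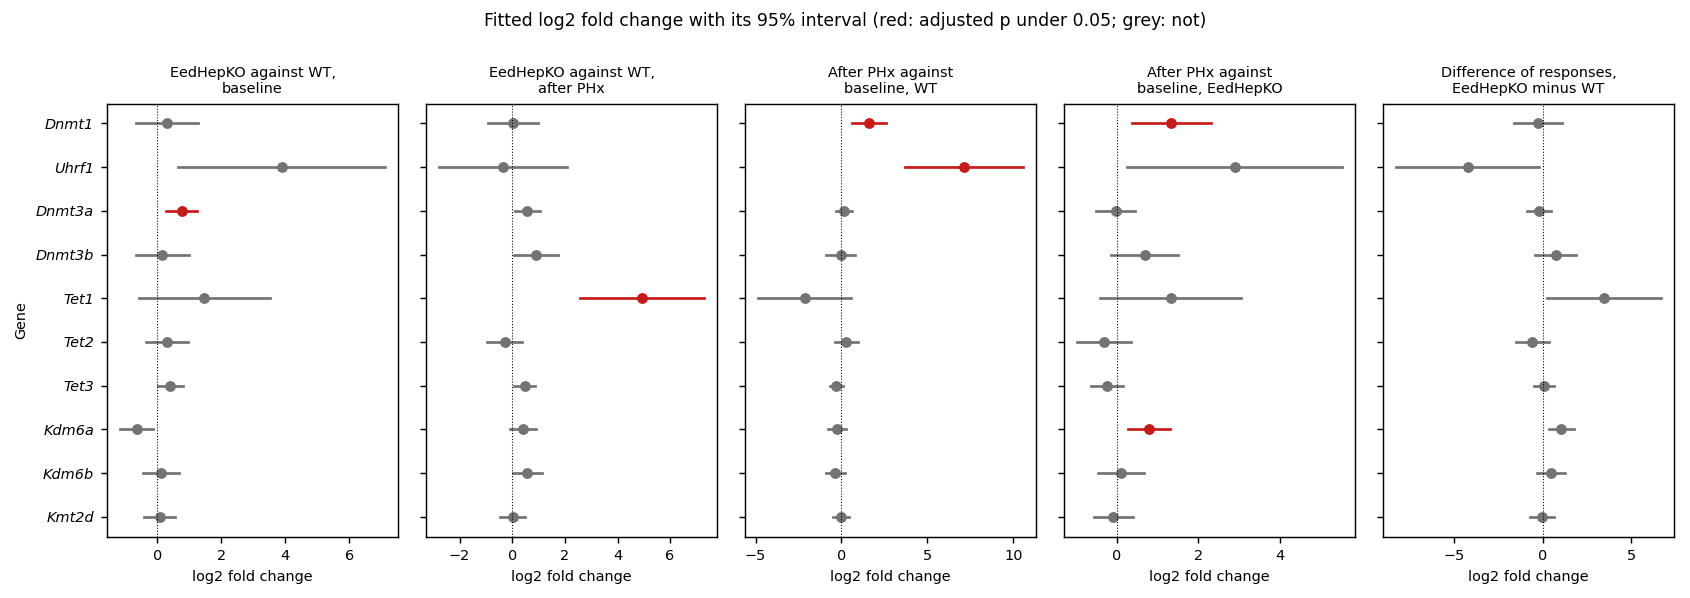
Fitted log2 fold change of each gene with its 95% interval in the 4 comparisons and in the difference of the responses, red where the adjusted p is under 0.05; the horizontal scale differs between panels. Dnmt3a at baseline, Tet1 after PHx, Dnmt1 in both responses, Uhrf1 in the wild-type and Kdm6a in the EedHepKO response are called.

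Ratios of paired enzymes within a sample do not depend on scaling between samples. On the log2(count + 0.5) scale the Uhrf1 to Dnmt1 ratio at baseline averaged −5.77 ± 0.92 (SD, n = 5) in wild-type and −2.32 ± 1.07 in EedHepKO mice. These groups did not overlap, and the exact two-sided permutation p was 0.00794, the smallest that 252 arrangements allow. Adjusted over the 8 ratio tests it was 0.0635. With wild-type Uhrf1 counts of 1 to 6, the size depends on the pseudocount: the difference of 3.45 became 2.31 with a pseudocount of 5. The Tet3 to Tet2 ratio after PHx averaged 0.4 ± 0.28 in wild-type and 1.23 ± 0.35 in EedHepKO mice, with an exact permutation p of 0.0159 and an adjusted value of 0.0635. The Kdm6b to Kdm6a ratio at baseline averaged 0.64 ± 0.38 and 1.42 ± 0.63, with an exact permutation p of 0.0476 and an adjusted value of 0.127. The other 5 ratios had an adjusted value of 0.738. None of the 8 passed after adjustment. A single ratio could not have passed alone, since the smallest p adjusts to 0.0635 over 8 tests.

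Partner genes were counted over lists drawn up from general knowledge, with the median over each list set beside that of all genes, which was −0.03 and −0.01 between genotypes and 0.04 and 0.1 between stages. The counts read against the 16% and 24.2% of all genes called between genotypes and the 20.1% and 29.5% called between stages. Among 16 tested partners and readers of DNA methylation, 2 were called higher and 1 lower in EedHepKO baseline liver, with a list median of 0.04. The higher ones were the methyl-CpG binder Zbtb4 (1, SE 0.29, adjusted p = 0.0235) and Cdca7l (3.59, SE 1.07, adjusted p = 0.0269). Zbtb38, another methyl-CpG binder, was lower (−0.71, SE 0.2, adjusted p = 0.0172). After PHx 1 was higher and none lower between genotypes, with a median of 0.16. That gene, the imprinting factor Zfp57 (1.9, adjusted p = 0.00709), was named after its value was seen. In the wild-type response 3 were higher and 1 lower, with a median of 0.05. Hells, the remodeller that acts with CDCA7 in DNA methylation, rose from 0.611 to 15.3 CPM (4.62, SE 1.13, adjusted p = 0.00793). Cdca7l rose by 4.2 (adjusted p = 0.0104) and Zbtb38 fell by 0.76 (adjusted p = 0.0103). In the EedHepKO response 4 were higher and none lower, with a median of 0.24, among them Cdca7 (2.13, adjusted p = 0.0174) and the UHRF1 deubiquitinase Usp7 (0.6, adjusted p = 0.033).

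Among 18 genes of active demethylation and repair, 2 were higher and 1 lower in EedHepKO liver after PHx, with a list median of −0.19. Gadd45a, which recruits repair factors to methylated DNA, averaged 3.08 CPM in wild-type and 26.1 CPM in EedHepKO mice (3.08, SE 0.63, adjusted p = 0.00154). Cxxc5 was higher (0.76, adjusted p = 0.00411), and Ogt, the glycosyltransferase that partners with TET proteins, was lower (−1.06, SE 0.23, adjusted p = 0.00271). In the wild-type response none rose and 5 fell, with a median of −0.16, among them Idh1, a source of the TET cosubstrate 2-oxoglutarate (−1.48, adjusted p = 0.00159), and Gadd45a (−1.91, adjusted p = 0.0332). In the EedHepKO response 1 rose and 3 fell, with a median of −0.27. Tdg, the glycosylase that excises oxidised methylcytosine, rose by 0.76 (adjusted p = 0.0257), D2hgdh fell by 1.26 (adjusted p = 0.00667) and Idh1 by 0.89 (adjusted p = 0.0232).

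Methyl donor metabolism held 21 tested genes. None was called between genotypes at baseline, where 2 had an edgeR unadjusted p under 0.05, against 30.5% of all genes, and the median was −0.24. After PHx 3 were lower in EedHepKO liver and none higher, with a median of −0.44. The betaine methyltransferases Bhmt (2703 and 1050 CPM, −1.36, adjusted p = 0.026) and Bhmt2 (−1.09, adjusted p = 0.018) were among them. In the wild-type response 2 rose and 4 fell, with a median of −0.14. Nnmt, which consumes S-adenosylmethionine, rose by 2.23 (adjusted p = 0.000351), and Mat2a, a synthetase of that donor, by 1.21 (adjusted p = 0.0285). Gamt, the methyltransferase of creatine synthesis, fell by 1.86 (adjusted p = 0.0371), and Gnmt, the glycine methyltransferase that consumes the donor in liver, by 1.48 (adjusted p = 0.0136). In the EedHepKO response 1 rose and 5 fell, with a median of −0.87. Nnmt rose by 1.89 (adjusted p = 0.00138), Bhmt fell by 1.66 (adjusted p = 0.00907) and Gnmt by 1.44 (adjusted p = 0.0125).

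Of 13 tested partners of KMT2D and related methyltransferases, none was called between genotypes at baseline, where again 2 had an edgeR unadjusted p under 0.05 (30.5% of all genes) and the median was −0.09. After PHx 1 was higher, the KMT2D complex subunit Ncoa6 (0.84, SE 0.24, adjusted p = 0.014), and 1 lower, Kmt2a (−0.52, SE 0.18, adjusted p = 0.0346), with a median of 0.16. Among wild-type mice 1 fell after PHx, Men1 (−0.75, adjusted p = 0.0464), with a median of 0.11. In the EedHepKO response 3 rose and 1 fell, with a median of 0.13, Ncoa6 by 1.15 (adjusted p = 0.00265) and Wdr5 by 0.72 (adjusted p = 0.0221), while Kmt2a fell by 0.59 (adjusted p = 0.0175).

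Other histone demethylases and the H3K27 acetyltransferases made up 19 tested genes. In EedHepKO baseline liver 1 was lower, the H3K4 demethylase Kdm1b (−0.71, SE 0.17, adjusted p = 0.00705), with a list median of −0.19. After PHx 3 were higher and 2 lower, with a median of 0.41. Kdm5b (1.26, adjusted p = 0.0062) and Kdm1a (1.02, adjusted p = 0.0198), both H3K4 demethylases, were higher, and Kdm5d (−0.71, adjusted p = 0.0268) and Kdm1b (−0.53, adjusted p = 0.0272) lower. After PHx in wild-type mice 1 rose, Kdm2b (0.85, adjusted p = 0.0355), and 1 fell, Kdm1b (−0.53, adjusted p = 0.0303), with a median of −0.1. In the EedHepKO response 6 rose and 1 fell, with a median of 0.24, led by Jmjd1c (1.71, adjusted p = 0.00653) and Kdm5a (1.4, adjusted p = 0.0106), and the gene that fell was Kdm5d (−0.7, adjusted p = 0.0246). None of the genes on these 5 lists was called in the difference of the responses, and 14 of the 87 tested had an edgeR unadjusted p under 0.05, near the 13.4% of all genes.

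The genes listed as germline genes that DNA methylation usually silences in somatic tissue were mostly at the limit of detection. Of 24, the filter on low counts kept 3: Taf9b, Brdt (group means of 0.818 to 1.67 CPM) and Xlr3a (1.71 to 8.29 CPM). Pooled over 5 samples, 17 of the 24 had 0 reads in wild-type baseline, 12 in EedHepKO baseline, 8 in wild-type and 10 in EedHepKO samples after PHx. Of the 3 tested, Taf9b was higher in EedHepKO baseline liver (0.519 and 1.64 CPM, 1.67, SE 0.5, adjusted p = 0.0269). Taf9b was read in wild-type liver too (0.519 CPM at baseline and 1.04 CPM after PHx), so the call does not describe a silent gene switched on. Whether DNA methylation silences it in liver was not tested. Xlr3a fell after PHx in EedHepKO liver (−2.29, SE 0.8, adjusted p = 0.0381). No other call was made on this list.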

How the data were processed

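Poly(A) RNA was sequenced as paired ends from 20 liver samples in 4 groups of 5 (wild type or EedHepKO, baseline or after PHx). The authors deposited raw whole-number counts per gene for each sample, made from uniquely mapped reads on mm10. The series' design text names fastp 0.20.0 for trimming, the submitters' processing notes name Trimmomatic 0.36 and FastQC 0.11.5, and the aligner, counter and strand setting are not given in the sources used here. Of 46603 identifiers, 46005 matched GENCODE M21 symbols.

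Counts were filtered with edgeR's filterByExpr on the 4 groups, scaled by TMM and fitted with 1 mean per group over all 20 samples (edgeR 4.0.16 in R 4.3.3, quasi-likelihood tests, Benjamini-Hochberg over the 14661 genes tested, threshold 0.05). The fit was tested on simulated data. Ratios of 2 genes within a sample used exact permutation tests on log2(count + 0.5). Totals of 21634890 to 30461351 reads bound the precision of genes read a few times, such as Tet1. Alternatives were other scalings, filters, DESeq2 1.42.0, leaving out samples, a time term, and the mouse as a replicate block.

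Per the labels each mouse gave both its samples, so the numbers pair them, and 1 wild-type baseline sample carries no number. Deviations from group means correlated at 0.007 to 0.096 within 4 wild-type and −0.063 to 0.195 within 5 EedHepKO pairs. Between different mice of a genotype they correlated at −0.077 to 0.089 and −0.229 to 0.285, so the pairs were hardly set apart.

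The members and lists were chosen with earlier results of these data known. From each context list and comparison the text names at most 4 called genes averaging 1 CPM or more, those at both extremes of log2 fold change, 2 from either end, and Zfp57, which averages less, was named beside them. For likeness it names up to the 3 genes with the highest Pearson r. Promoter sequences are from RefSeq (GRCm38.p6). For the active demethylation list, the baseline comparison between genotypes is not reported here.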

Additional observations from a re-analysis of the deposited data

Results flagged for a closer look

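Of 44 sets of 5 values examined (the 10 genes and Eed in 4 groups), 1 held a sample far from the others. Uhrf1 in the wild-type sample taken at 30 h after PHx measured 113 CPM, and its gap to the next wild-type sample after PHx was 0.825 of the group's range, above the critical value of 0.71 for 5 samples. Chance flags about 1 in 20 such sets. That sample also had the highest S phase sum, 1800 CPM, and it is the only wild-type sample at its time point.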

How the results depend on the processing

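The number of the 10 genes called at baseline between genotypes, 1 as reported, became 2 with upper-quartile factors, 2 without the 30 h samples, 2 in DESeq2, 3 with library size alone and 3 in the fit of the 10 samples compared. It ran from 0 to 2 as single samples were left out. After PHx the number, 1 as reported, became 6 with library size alone, 0 with the CPM filter, 2 without the 30 h samples, 0 in the fit of the 10 samples and 3 in DESeq2, and it ran from 1 to 4 over left-out samples. In the wild-type response 2 became 1 without the 30 h samples, 1 in the fit of the 10 samples, 0 with the replicate block in 9 numbered mice and 1 with the block in all mice, and 1 to 2 over left-out samples. In the EedHepKO response 2 became 3 in DESeq2, with Uhrf1 added, 1 in the fit of the 10 samples, 1 and 0 with the 2 forms of the replicate block, and 0 to 2 over left-out samples, and without the 30 h samples the 2 were Dnmt1 and Uhrf1. The difference of the responses called 0 to 1 over left-out samples. The block changed no other count of members. The causes were not tested, except that in the fits of the 10 samples Uhrf1 fell below the filter for the wild-type response and Tet1 after PHx, as Tet1 did with the CPM filter.

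Library size alone moved the median of all genes (log2), most at baseline, from −0.028 to 0.449, and with it the split of calls. At baseline 1632 genes were higher and 717 lower as reported, 3524 and 113 with library size alone, 1992 and 340 with upper-quartile factors. After PHx 2342 and 1202 became 3892 and 297, in the wild-type response 1677 and 1273 became 3796 and 582, and in the EedHepKO response 2556 and 1770 became 4051 and 963, all with library size alone. TMM factors were lower in wild-type baseline samples (0.67 to 0.806) than elsewhere (0.891 to 1.51). The fit of the 10 samples compared gave 2846 higher and 2396 lower at baseline and 1127 and 218 after PHx. DESeq2 called 2147 higher and 900 lower at baseline, 2670 and 1500 after PHx, and 3077 and 2020 in the EedHepKO response. Without the 30 h samples these were 1850 and 863, 2242 and 1019, and 2410 and 1548. The counts of members above read against such counts of all genes. The difference of the responses called 24 genes higher and 33 lower as reported, 2 and 5 with the replicate block in numbered mice, 187 and 178 in DESeq2, and 412 and 296 without EedHepKO mouse 10 after PHx.

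For ratios, Dnmt3b to Dnmt3a after PHx, 0.299 as reported, was −0.044 without the 30 h samples. Over left-out samples, Tet3 to Tet2 at baseline ran from −0.039 to 0.353 (0.148 as reported), and Uhrf1 to Dnmt1 after PHx from −0.359 to 1.416 (0.643). At baseline Uhrf1 to Dnmt1 ran from 3.137 to 3.776 and Kdm6b to Kdm6a from 0.574 to 0.998. Without EedHepKO baseline sample 8, Uhrf1 to Dnmt1 (3.214) and Kdm6b to Kdm6a (0.998) at baseline passed, both at an adjusted exact permutation p of 0.0317. Tet3 to Tet2 after PHx, which does not use that sample, then passed too (0.0423), through the adjustment over the 8 tests alone. Of 1481 values of single genes compared with the reported ones, 1358 kept direction and call, 24 lost a call, 27 gained one and 72 uncalled ones changed sign. No called value reversed.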
